A study of Citrus sinensis with 24 samples.

Results

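Newhall and Xinhui are 2 sweet orange varieties whose fruits are of normal acidity, and the data described here compare their fruit transcriptomes at 45 days post anthesis (DPA), when the fruit is in the cell division stage. Of the 24 RNA-seq libraries of the series, the 6 libraries of these varieties at 45 DPA were compared, 3 of Newhall and 3 of Xinhui, over all 24166 genes of the read count table. Libraries were chosen by the variety and stage on their labels, and no measured value entered the choice. The other 18 libraries cover the same varieties at 142 DPA, in the cell expansion stage, and at both stages Bingtang, whose fruits are low in acid, and Succari, whose fruits are labelled acidless. All trees were grown in the field, no treatment was given, and total RNA was taken from fruit tissue. The replicates are called biological in the study, but whether they came from separate trees is not given in the sources used here, so the p-values measure the spread between these libraries. Apart from a list of 72 genes and an actin gene, the gene IDs could not be paired with names (0 of 24166 IDs matched the reference table), and most genes are therefore described by their ID, by their chromosome as written in the ID and by how they behave.

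A young orange fruit consists mainly of a dividing rind and of the juice vesicles that will later hold the juice. Cell division gives way to cell expansion, during which the vacuoles of the juice cells take up sugars and organic acids, mostly citrate. The acidity of the mature fruit depends on how much citrate is made in mitochondria, how much is pumped into the vacuole along with protons, and how much is used again. Varieties of sweet orange are commonly bud-propagated and derive from one another by somatic mutation, so they share most of their sequence. Newhall is a navel orange.

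The 6 libraries held between 3.76 M and 5.89 M counted reads, and 19303 to 20053 genes had at least 1 read in each. Levels are counts brought to the same library total (CPM) and are not corrected for gene length, and differences as log2 of Newhall over Xinhui from edgeR's quasi-likelihood test with its standard error (SE). Genes were tested where 3 or more of the 24 libraries reached 0.3 CPM, which left 20739 genes. A gene was called where its Benjamini-Hochberg adjusted p was under 0.05 and the difference was at least 2-fold. Libraries of one variety resembled each other more than those of the other variety. Across genes, the correlation of log2 levels was 0.987 to 0.991 between replicates and 0.975 to 0.978 between varieties, and no pair of libraries agreed within sampling noise.

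A small part of the transcriptome separated the varieties. Of the 20739 genes, 614 (2.96%) were called, 308 (1.49%) of them higher in Newhall and 306 (1.48%) higher in Xinhui. Without the 2-fold limit 1349 genes would have passed. The total and its even split also rested on the libraries that set the spread, with 989 calls (432 higher in Newhall, 557 higher in Xinhui) from the 6 compared libraries alone and 1006 (444 and 562) from the 12 libraries of 45 DPA. Scaled by library totals alone, 271 and 337 genes were called. The median called difference was 3.09-fold for genes higher in Newhall and 3.25-fold for genes higher in Xinhui. At least 4-fold differences were found for 112 and 117 genes, at least 8-fold for 65 and 53, and at least 32-fold for 26 and 17. The estimates above 32-fold belong to genes with few or no reads in the lower variety, and such estimates depend on the prior count of the fit. All 3 libraries of one variety lay above all 3 of the other for 306 of the 308 genes higher in Newhall and for each of the 306 higher in Xinhui, against 12% and 20.1% of all genes tested in these directions. These overlaps were counted in CPM, without the composition factors that scale the test, which were 0.947 to 0.962 in Newhall and 0.991 to 1 in Xinhui.

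**Figure D1:**
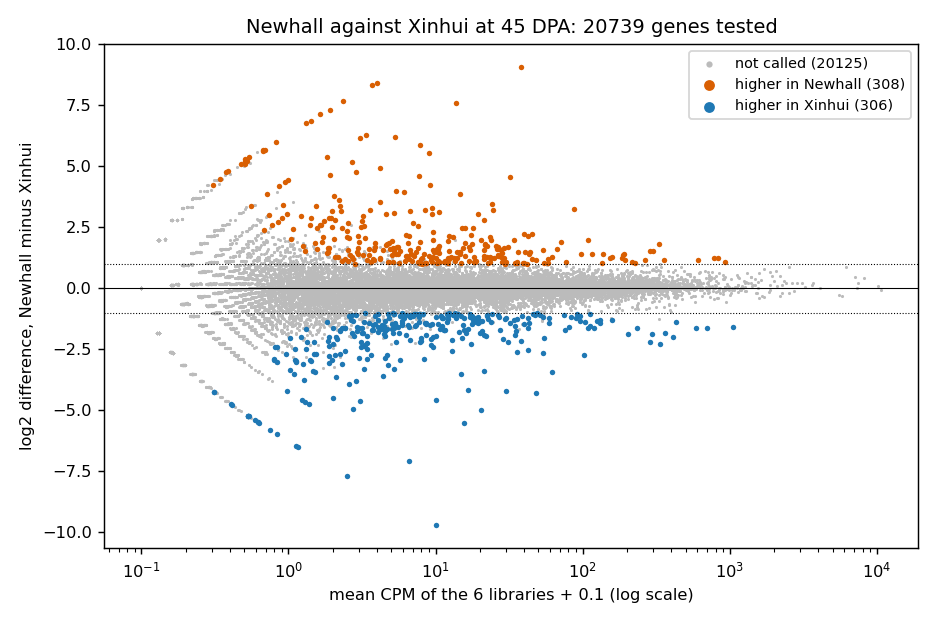
Each point is 1 of the 20739 genes tested, by the mean CPM of the 6 libraries plus 0.1 (x axis, log scale) and the log2 difference of Newhall minus Xinhui at 45 DPA (y axis). The 308 genes called higher in Newhall and the 306 called higher in Xinhui lie beyond the dotted 2-fold lines at most levels, while low genes scatter widely without being called.

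The genes that differed were mostly of moderate level. The median level in the higher variety was 11.3 CPM for genes higher in Newhall and 9.66 CPM for genes higher in Xinhui, and 25 and 30 genes reached 100 CPM there. Called genes made up 1.27% of the genes with a mean under 1 CPM, 5.27% between 1 and 10 CPM, 2.45% between 10 and 100 CPM and 1.95% above. The precision differed in the same bins, with a median SE of 1.05 on the log2 scale under 1 CPM and 0.11 above 100 CPM. A 2-fold difference was therefore hardly detectable among the lowest genes. In sum, the genes higher in Newhall took 1.4% to 1.51% of the reads of its libraries and 0.587% to 0.589% in Xinhui. The genes higher in Xinhui took 1.37% to 1.61% of the reads there and 0.442% to 0.492% in Newhall. These sums describe the genes that the test selected and are no separate evidence of a difference.

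By the largest difference, 4 genes without a name stand for the extremes. They were taken from called genes with at least 3 reads in each library of the lower variety. The rule also required that the 3 libraries of each variety did not overlap, so their separation at 45 DPA was set by the choice. Cs6g09940, on chromosome 6, had 62.2, 74.5 and 45.5 CPM in the Newhall libraries and 2.30, 2.72 and 2.93 CPM in those of Xinhui. The groups lie far apart, and the log2 difference was 4.58 (SE 0.442, edgeR adjusted p = 3.68e-07). Bingtang, with a mean of 5.15 ± 0.390 CPM (SD, n = 3), and Succari, with 24.9 ± 4.16 CPM, lay between the normal acid varieties. At 142 DPA the same gene had 213, 305 and 154 CPM in Newhall and 240, 327 and 367 CPM in Xinhui. There the groups overlapped and the log2 difference of -0.66 (SE 0.289) was not called, with an adjusted p of 0.110.

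Cs5g34830, on chromosome 5, kept its difference. At 45 DPA it had 14.7, 11.3 and 25.3 CPM in Newhall and 0.958, 1.19 and 0.586 CPM in Xinhui, a log2 difference of 4.21 (SE 0.494, edgeR adjusted p = 4.83e-06). At 142 DPA it had 43.4, 33.8 and 43.8 CPM in Newhall and 2.78, 5.42 and 4.68 CPM in Xinhui. Newhall was thus the high variety in every library at both stages, and Bingtang (2.83 ± 0.964 CPM, SD, n = 3) and Succari (1.55 ± 0.736 CPM) were near Xinhui at 45 DPA.

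The most strongly Xinhui-high genes under the same rule were nearly lost from the older fruit of both varieties. Cs2g11990, on chromosome 2, had 0.533, 1.5 and 1.6 CPM in Newhall and 43.7, 39.2 and 34.2 CPM in Xinhui (log2 difference -4.98, SE 0.826, edgeR adjusted p = 3.77e-04). At 142 DPA no library of either variety exceeded 0.521 CPM for it. The gene orange1.1t03423, whose ID carries no chromosome, had 1.60, 6.19 and 6.39 CPM in Newhall and 101, 93.5 and 81.3 CPM in Xinhui (log2 difference -4.27, SE 0.260, edgeR adjusted p = 1.08e-09). At 142 DPA it had 0.986, 0.186 and 0.772 CPM in Newhall and no read in Xinhui, and at these few reads it was called higher in Newhall (edgeR adjusted p = 0.036), the opposite of its direction at 45 DPA. Succari exceeded Xinhui for both genes, with 83.5 ± 2.93 CPM of Cs2g11990 and 262 ± 14.5 CPM of orange1.1t03423 (SD, n = 3), while Bingtang had 9.43 ± 1.27 and 17.1 ± 2.50 CPM. The 2 normal acid varieties were therefore not neighbours in the order of levels for either gene.

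**Figure D2:**
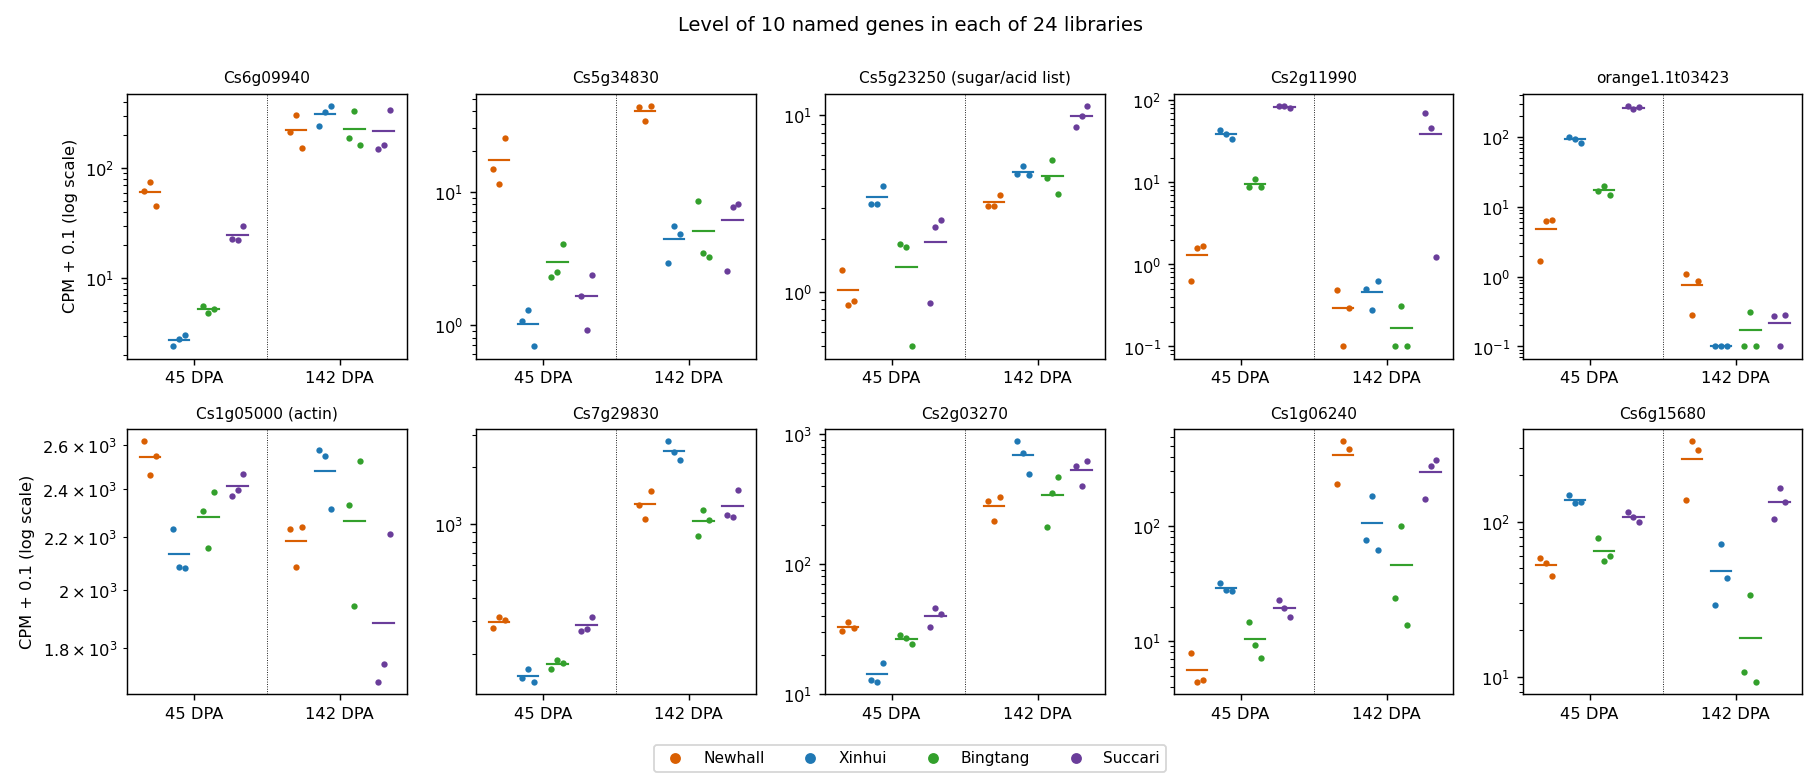
Each panel shows 1 gene by CPM plus 0.1 (y axis, log scale) in all 24 libraries, grouped by stage (x axis) and coloured by variety; points are libraries and short lines the means of 3. At 45 DPA Newhall and Xinhui do not overlap in any of the 10 panels. For Cs6g09940, Cs5g34830, Cs2g11990 and orange1.1t03423 this was a condition of their choice. In the last 4 panels, chosen for it, the order of the varieties is the opposite at 142 DPA.

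The levels of the called genes in Bingtang and Succari at 45 DPA were set beside those of the compared varieties. For the 308 genes higher in Newhall, all 3 Xinhui libraries lay below the other 9 libraries of this stage in 162 (52.6%), and all 3 Newhall libraries lay above the other 9 in 109 (35.4%). For the 306 genes higher in Xinhui, the Xinhui libraries lay beyond the other 9 in 203 (66.3%) and the Newhall libraries in 100 (32.7%). These counts overlap, since in 35 and 47 genes both varieties stood beyond the rest. In 72 and 50 genes neither variety did. Among all genes tested, Xinhui libraries lay beyond the other 9, in either direction, in 9.9% and Newhall libraries in 6.06%. Both figures are in library-total CPM, without the composition factors given above. The called genes were chosen for a gap between Newhall and Xinhui, so shares above these figures are no separate evidence.

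The means of log2 CPM, with a small offset and without the composition factors, were compared next. By this measure Bingtang was nearer to Newhall than to Xinhui for 153 of the 308 genes higher in Newhall (49.7%). The same held for 207 of the 306 genes higher in Xinhui (67.6%). Succari was nearer to Newhall for 207 (67.2%) and 190 (62.1%). No such share was counted over all genes tested. Neither variety lay on one side for all of these genes. In read share, genes higher in Newhall took 1.33% to 1.38% of the Succari reads, close to the Newhall share, and 0.922% to 1.01% of the Bingtang reads. Genes higher in Xinhui took 0.603% to 0.639% of the reads in Bingtang and 0.667% to 0.694% in Succari, both nearer to Newhall.

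Some genes were read in only one of the 2 compared varieties. Of the 308 genes higher in Newhall, 21 had no read in any Xinhui library at 45 DPA, and of the 306 genes higher in Xinhui, 19 had no read in Newhall. Their mean levels in the other variety were 0.418 to 7.77 CPM and 0.426 to 19.8 CPM. Against a floor of 3 counts over the group without reads, which covers counting error only and corresponds to 0.185 CPM in Xinhui and 0.204 CPM in Newhall, the genes were at least 2.26-fold to at least 42.0-fold higher in Newhall and at least 2.09-fold to at least 96.9-fold higher in Xinhui. Absence of reads says that these genes were not detected at this depth. Bingtang and Succari were counted as reading a gene at 45 DPA where their libraries summed to more than 3 counts. Most of the genes passed this in Bingtang or Succari, with 8 of the 21 and 2 of the 19 passing in neither and 9 and 8 in both. Some of those passing in neither had single reads there.

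The genes without reads were followed to 142 DPA. Of the 21 genes without a read in Xinhui, 14 also had none in its 142 DPA libraries and 14 were called higher in Newhall there. Of the 19 without a read in Newhall, 10 had none at 142 DPA and 4 were called higher in Xinhui. Over all genes tested, 3.71% were called higher in Newhall and 3.08% higher in Xinhui at 142 DPA. Among all genes called in the same direction at 45 DPA, the shares were 36.7% and 16.3%. No such share was counted for the absence of reads at 142 DPA. The largest bound belongs to a gene on chromosome 6 with 21.5, 19.9 and 18.0 CPM in Xinhui and none in Newhall. Bingtang had 12.5, 12.4 and 13.0 CPM of it, and Succari had reads in 1 of its 3 libraries, at 0.203 CPM. At 142 DPA Xinhui held 0.994, 0.542 and 0 CPM of it. A gene on chromosome 8 was absent from Newhall alone. It had 5.56, 4.41 and 4.49 CPM in Xinhui, 4.73 to 4.95 CPM in Bingtang and 4.64 to 6.89 CPM in Succari, and no read in the 6 Newhall libraries of both stages. These genes and the pair on chromosome 9 described next were singled out after their values were seen.

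Some of the genes that differed in the same direction stood next to each other. Gene IDs number the genes along a chromosome, and 526 of the 614 called genes carry such an ID. Of the 262 placed genes higher in Newhall, 30 (11.5%) had a neighbouring tested gene called in the same direction, and 6 (2.29%) had one called in the opposite direction. Of the 264 placed genes higher in Xinhui, 34 (12.9%) and 6 (2.27%) did. Among all 17505 placed genes tested, 2.92% had a Newhall-high neighbour and 2.95% a Xinhui-high neighbour. The chromosomes themselves differed little, with 2.58% of genes called on chromosome 4 and 3.49% on chromosome 5. The called neighbours formed 29 runs with 64 genes, 25 of them pairs and 4 of at least 3 genes. Neighbouring genes can be near-identical copies whose reads the counting may have split or lost, and the sequences were not used here, so the runs are given as reads assigned to these IDs.

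A pair on chromosome 9 was read almost solely in Newhall. The first gene had 3.73, 3.19 and 3.99 CPM and the second 8.35, 5.63 and 9.31 CPM in the Newhall libraries of 45 DPA, and neither had a read in the other 9 libraries of this stage. At 142 DPA they had 3.90 to 5.98 and 13.5 to 17.6 CPM in Newhall. Xinhui and Succari again had none, and 1 Bingtang library had 0.195 CPM of the second gene.

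At 45 DPA a run of 3 genes on chromosome 4 was present in Newhall and Succari and nearly absent from Xinhui and Bingtang. Its first gene had 78.4, 76.6 and 72.1 CPM in Newhall and 0.192, 0 and 0.195 CPM in Xinhui, with 68.1 to 77.0 CPM in Succari and 0.198 to 0.591 CPM in Bingtang. The second gene had 25.2, 29.5 and 27.4 CPM in Newhall and at most 0.391 CPM in a Xinhui library, and the third had 6.04, 10.1 and 5.32 CPM in Newhall and no read in Xinhui. The log2 differences were 9.07 (SE 0.402), 7.60 (SE 0.527) and 8.32 (SE 1.02), of which the last rests on a group without reads. At 142 DPA the run had fallen to at most 6.51 CPM in Newhall, and 2 of its 3 genes were still called higher in Newhall.

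The longest run, 5 genes on chromosome 5, was higher in Xinhui by a similar amount throughout. The log2 differences lay between -2.23 and -1.63, although the levels ran from 4.41 to 1160 CPM across the Xinhui libraries and from 0.939 to 376 CPM across those of Newhall. Its second gene, the most abundant, had 310, 299 and 376 CPM in Newhall and 1150, 880 and 1160 CPM in Xinhui, and its first had 161, 155 and 165 CPM against 731, 556 and 702 CPM. In no library of 142 DPA, of any variety, did a member exceed 1.56 CPM. A run of 3 genes on chromosome 6 shared both traits, with log2 differences of -1.85 to -1.25 and at most 0.217 CPM in each library of 142 DPA. The fourth run, 3 genes on chromosome 1, was higher in Newhall by log2 differences of 1.23 to 1.92.

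**Figure D3:**
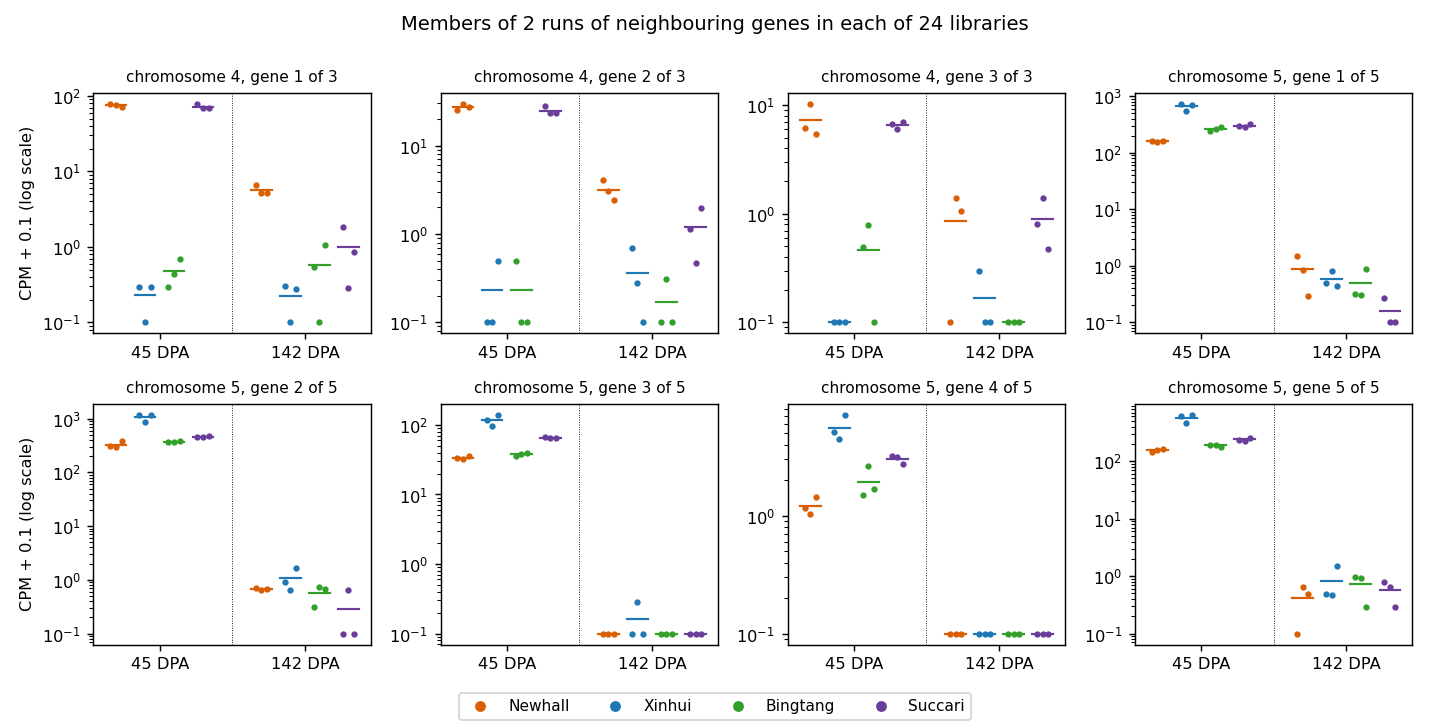
CPM plus 0.1 (y axis, log scale) in each of 24 libraries for the 3 genes of the chromosome 4 run and the 5 genes of the chromosome 5 run, by stage (x axis) and variety (colour); points are libraries and short lines the means of 3. At 45 DPA, Newhall and Succari lie together on chromosome 4 with Xinhui and Bingtang near 0, and Xinhui is the highest variety for each gene on chromosome 5, where all varieties are at most 1.56 CPM at 142 DPA.

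The libraries of 142 DPA showed how far the difference at 45 DPA held later. At 142 DPA, 1408 genes (6.79%) were called between Newhall and Xinhui, 770 (3.71%) higher in Newhall and 638 (3.08%) higher in Xinhui. The larger total than at 45 DPA was not kept when each stage was fitted alone, with 1006 calls from the 12 libraries of 45 DPA and 999 from the 12 of 142 DPA. Of the 308 genes higher in Newhall at 45 DPA, 113 (36.7%) were called higher in Newhall again, 13 (4.22%) were called higher in Xinhui and 182 were not called. Of the 306 genes higher in Xinhui, 50 (16.3%) were called higher in Xinhui again, 13 (4.25%) were called higher in Newhall and 243 were not called. The median log2 difference went from 1.63 to 0.68 in the first group and from -1.70 to -0.41 in the second. At 142 DPA 128 genes (41.8%) of the second group were under 1 CPM in both varieties, against 51 (16.6%) of the first. This share was not counted over all genes tested. Whether it bears on the number of genes called again was not tested. The test of the change itself, the interaction of variety and stage, called 1163 of all genes tested (5.61%).

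**Figure D4:**
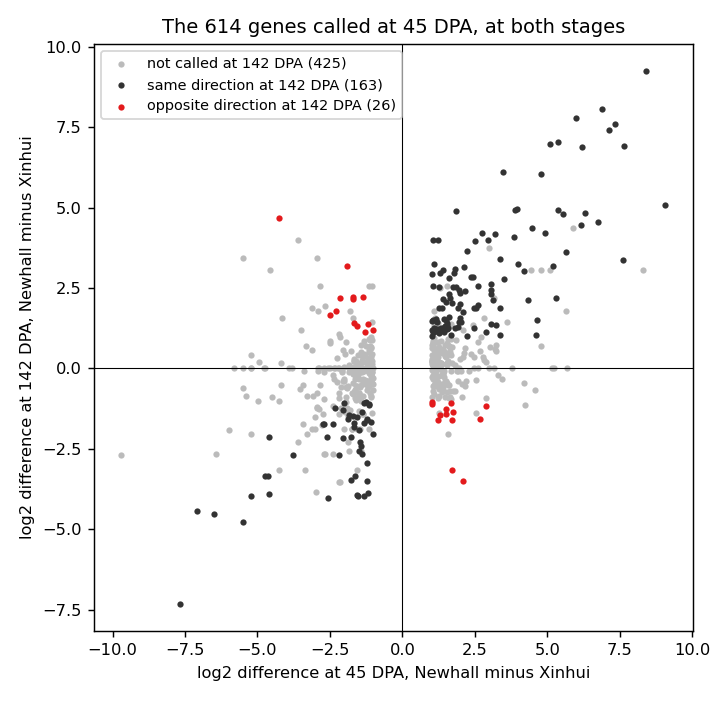
The 614 genes called at 45 DPA, by their log2 difference of Newhall minus Xinhui at 45 DPA (x axis) and at 142 DPA (y axis); each point is a gene. Of the 189 genes called at both stages, 163 keep their direction and 26 take the opposite one.

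Of the 189 genes called at both stages, 163 (86.2%) had the same direction and 26 the opposite, 13 from each side. Of these, 4 further genes beside orange1.1t03423 were singled out after their values were seen. Cs7g29830, on chromosome 7, had 275.1, 316.5 and 306.3 CPM in Newhall and 149.6, 166.2 and 142.4 CPM in Xinhui at 45 DPA (log2 difference 1.03, SE 0.141, edgeR adjusted p = 3.71e-05). At 142 DPA it was the higher in Xinhui, with a mean of 2460 ± 282 CPM against 1270 ± 214 CPM in Newhall (SD, n = 3). Its difference at 45 DPA fell just short of 2-fold when libraries were scaled by their totals alone (0.97), without Newhall replicate 2 (0.98) and without Xinhui replicate 3 (0.98). Cs2g03270, on chromosome 2, showed the same turn, with 30.2, 35.5 and 31.9 CPM in Newhall against 12.6, 12.2 and 17.0 CPM in Xinhui at 45 DPA. At 142 DPA it had 305, 213 and 326 CPM in Newhall and 878, 714 and 489 CPM in Xinhui. Both genes had their highest levels in the older fruit of each variety.

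In the opposite sense, Cs1g06240, on chromosome 1, had 7.82, 4.32 and 4.52 CPM in Newhall and 31.8, 27.8 and 26.96 CPM in Xinhui at 45 DPA, and means of 416 ± 162 and 107 ± 66.8 CPM (SD, n = 3) at 142 DPA. Cs6g15680, on chromosome 6, had 57.9, 54.2 and 44.4 CPM in Newhall and 150, 133 and 134 CPM in Xinhui at 45 DPA, and means of 253 ± 101 and 48.0 ± 21.6 CPM at 142 DPA. The log2 differences at 45 DPA were -2.28 (SE 0.675, edgeR adjusted p = 0.0440) and -1.35 (SE 0.357, edgeR adjusted p = 0.0229). Both groups of 3 stand well apart at 45 DPA, but the wide scatter of the 142 DPA libraries enters the pooled spread. The calls of both genes at 45 DPA were lost when any 1 of the 6 libraries was left out. In edgeR the adjusted p-values were then 0.0844 to 0.159 for Cs1g06240 and 0.0550 to 0.101 for Cs6g15680. From the 6 compared libraries alone edgeR gave 1.01e-16 and 2.35e-19, and from the 12 libraries of 45 DPA 1.09e-14 and 1.21e-17. DESeq2 on all libraries gave adjusted p-values of 0.00409 and 0.0259.

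The stage changes of Bingtang and Succari were set beside the differences. Their libraries do not enter the levels compared between Newhall and Xinhui. They do enter the shared estimate of the spread, the filter that set which genes were tested, and the scaling. Of the 306 genes higher in Xinhui, 122 (39.9%) fell from 45 to 142 DPA in both Bingtang and Succari and 24 (7.84%) rose in both, against 13.4% and 11% of all genes tested. Of the 308 genes higher in Newhall, 76 (24.7%) rose and 52 (16.9%) fell. The median log2 stage change of the genes higher in Xinhui was -1.71 in Bingtang and -1.21 in Succari. For the genes higher in Newhall it was 0.49 and -0.07, so the varieties differed in sign there. Over all genes tested the medians were -0.0028 and 0.026. The Succari libraries of 142 DPA differed among themselves in seed genes, with sums of the seed maturation list of 3970 and 4010 CPM in replicates 1 and 2 and 45.0 CPM in replicate 3. Without the 2 seed-rich libraries only 1 Succari library of 142 DPA was left, so the counts of that fit are not given. Without replicate 3, 113 (36.9%) of the Xinhui-high genes fell and 23 (7.52%) rose. Of the Newhall-high genes 70 (22.7%) rose and 52 (16.9%) fell. In the same fit 10.7% of all genes tested rose and 12.7% fell. Fruits of both varieties were taken at the same DPA, and whether they had reached the same point of development at 45 DPA was not tested.

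**Figure D5:**
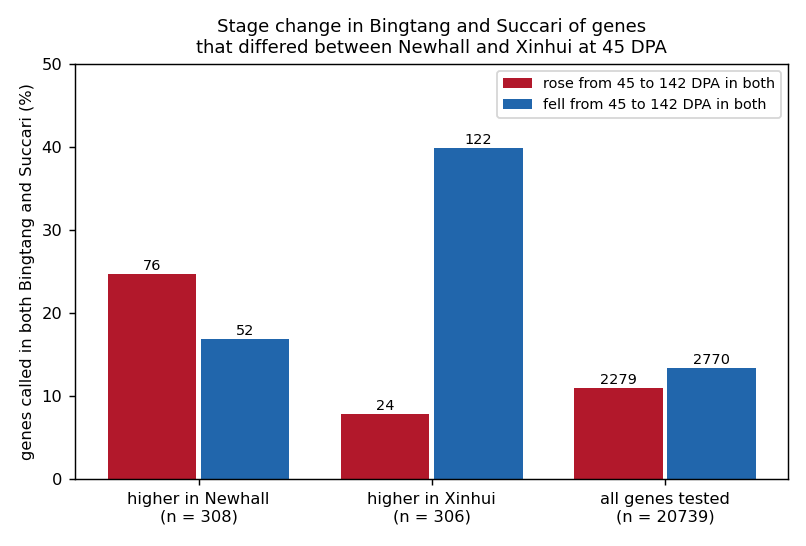
Bars give the percentage of genes called as rising or falling from 45 to 142 DPA in both Bingtang and Succari (y axis), for the genes higher in Newhall, those higher in Xinhui and all genes tested (x axis), with the gene numbers above the bars. Falling genes make up 39.9% of the genes higher in Xinhui, 16.9% of those higher in Newhall and 13.4% of all genes.

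The study paired IDs with names for 72 genes listed for the correlation of their level with the sugar/acid ratio across all 24 libraries. The list was chosen on these samples and is not independent of them. All 72 were tested, and 1, higher in Xinhui, was called, against 2.96% of all genes tested. At an unadjusted p under 0.05 there were 8 (11.1%), 4 in each direction, against 18.5% of all genes. Most listed genes were hardly expressed in the young fruit, with 47 under 1 CPM in both varieties and 11 without a read in the 6 libraries. Their median log2 difference was 0. At 142 DPA 7 of the 72 were called between the same varieties, against 6.79% of all genes tested. A count of calls near 0 in genes of such low level sets no narrow limit on their differences.

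The gene called was Cs5g23250, for which the list gives no function. It had 1.24, 0.751 and 0.798 CPM in Newhall and 3.07, 3.06 and 3.91 CPM in Xinhui, with no overlap (log2 difference -1.73, SE 0.404, edgeR adjusted p = 0.00934). Without Newhall replicate 2 the call was lost, with an edgeR adjusted p of 0.0594. At 142 DPA the means were 3.13 ± 0.294 and 4.71 ± 0.298 CPM (SD, n = 3) and the difference of -0.75 was not called.

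By function, none of the other listed groups had a called member. Among 9 transport genes, 2 had an unadjusted p under 0.05, both higher in Xinhui. The largest estimate was that of Cs5g17210, which encodes Beta-TIP, an aquaporin of the tonoplast, at 0.178, 0.188 and 0 CPM in Newhall and no read in Xinhui. Cs5g24670, a putative lipid transfer or seed storage protein, was at 35.5, 36.8 and 38.3 CPM in Newhall and 35.8, 34.1 and 37.7 CPM in Xinhui, a log2 difference of 0.10 (SE 0.368). Among 6 signaling genes, WAKL1 (Cs6g02710), a receptor-like kinase associated with the cell wall, had the largest estimate, with 0, 0 and 0.532 CPM against 0.192, 0.509 and 0.586 CPM. These are values of a few reads, and the groups overlap.

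Among 7 genes of the transcription group, the F-box protein gene Cs3g01830 (F-box proteins choose the targets of ubiquitin ligases) had 0.533, 0 and 0.266 CPM in Newhall and no read in Xinhui (edgeR adjusted p = 0.180). It was called at 142 DPA, with 0.789, 0.557 and 0.579 CPM in Newhall and again no read in Xinhui. The remorin-like gene Cs5g03630, whose kind is found at plasma membranes, had 0.889, 2.82 and 0.532 CPM in Newhall and 2.30, 2.72 and 1.37 CPM in Xinhui, with a log2 difference of -0.47 (SE 0.455). In the groups of protein degradation (3 genes), development (2) and stress response (4), the largest estimates belonged to the protease inhibitor gene CYS2 (orange1.1t02370), the late embryogenesis abundant gene LEA4-5 (orange1.1t02243) and the TMV resistance protein N-like gene Cs5g19950. None of these exceeded 0.889 CPM in a library at 45 DPA. The small heat shock protein gene HSP18.2 (Cs7g32260) had 0.178 to 0.751 CPM in Newhall and 0.170 to 0.575 CPM in Xinhui.

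Among 20 metabolism genes, 2 had an unadjusted p under 0.05, both higher in Newhall. The cytosolic malate dehydrogenase gene Cs1g03610, whose enzyme interconverts malate and oxaloacetate, had 1.60, 0.939 and 0.798 CPM in Newhall and 1.53, 0.849 and 0.782 CPM in Xinhui. The groups lay on top of each other, with a log2 difference of 0.18 (SE 0.551). Cs5g20010, a hyoscyamine 6-dioxygenase gene by its homolog, had 1.07, 1.5 and 2.13 CPM in Newhall and 1.34, 1.19 and 1.37 CPM in Xinhui at 45 DPA (log2 difference 0.28, SE 0.515), and was called higher in Newhall at 142 DPA (1.30, SE 0.413). The largest estimate of the group was that of GEA6 (Cs7g30920), a late embryogenesis abundant protein, with no read in Newhall and 0.170 to 0.195 CPM in Xinhui.

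The 21 genes of unknown function held the 1 gene called. Their largest estimate was that of Cs2g20110, which had 1 library with reads in Newhall, at 0.178 CPM, and none in Xinhui. Cs6g16160 had 143.6, 133.1 and 138.4 CPM in Newhall and 135.7, 139.5 and 132.1 CPM in Xinhui at 45 DPA, a log2 difference of 0.09 (SE 0.238), and parted later, with 261 ± 15.0 and 113 ± 21.8 CPM (SD, n = 3) at 142 DPA. The change between the stages was not called (edgeR adjusted p = 0.0671).

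Seeds can add their own transcripts to a fruit sample. The 8 genes of a seed maturation list, which was taken over from earlier work on these data and also belongs to the 72 genes, summed to 37.7 to 39.7 CPM in the Newhall libraries and 34.8 to 39.1 CPM in those of Xinhui. Nearly all of this came from Cs5g24670, which did not follow the rest of the list. In the Succari libraries of 142 DPA it was at 2.45, 3.30 and 5.04 CPM, although the list as a whole summed to 45.0 to 4010 CPM there. The other 7 genes, summed without it after its values were seen, reached 0.939 to 3.02 CPM in Newhall and 0.679 to 1.37 CPM in Xinhui at 45 DPA, against 39.9 to 4010 CPM in Succari at 142 DPA. Each of the 7 had a mean under 1 CPM in both varieties, 1 had no read, and none was called. At 45 DPA their sum was also low in Bingtang (0.341 to 1.77 CPM) and Succari (0.406 to 1.93 CPM). Whether the list would detect seeds in fruit of this age was not tested, so the low values do not measure seed content. Markers of the fruit tissue itself were not available under these IDs, so the tissue on the label was not checked.

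The actin gene Cs1g05000, the study's reference for qPCR, differed a little. It had 2617, 2464 and 2549 CPM in Newhall and 2234, 2084 and 2079 CPM in Xinhui, a log2 difference of 0.32 (SE 0.0949) with an edgeR adjusted p of 0.0481, which is below 2-fold and was not called. The adjusted p depended on the fit. In edgeR it was 0.198 when libraries were scaled by their totals alone and 0.0705 to 0.17 without 1 of the 6 libraries. It was 0.0527 and 0.052 in limma and 0.0011 in DESeq2. From the 6 compared libraries alone edgeR gave 2.31e-05, and from the 12 libraries of 45 DPA 1.29e-05, both at a log2 difference of 0.31. At 142 DPA the order was the opposite, with a log2 difference of -0.35 (SE 0.0949, edgeR adjusted p = 0.0103).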

How the data were processed

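RNA-seq libraries of fruits of 4 sweet orange varieties at 45 and 142 DPA were analysed, 3 per variety and stage. The authors deposited a table of 24166 genes with counts of unique reads, without normalization; its sheet name speaks of RPKM, but the values are whole and each column adds up to the read total in its heading. A dash was read as 0. Which aligner, counting tool and build they used is not given in the sources used here. All columns were mapped to a sample by title.

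Genes that reached 0.3 CPM in 3 or more libraries, 20739 in all, were tested with edgeR 4.0.16 in R 4.3.3 (glmQLFit, TMM scaling, all 24 libraries in 8 groups, which share 1 estimate of the spread), with Benjamini-Hochberg adjustment. Genes were called at adjusted p under 0.05 where the estimate reached 2-fold. Total counts per library were 3.76 M to 5.89 M. Alternatives used DESeq2 1.42.0, limma 3.58.1, other scalings, filters and libraries, and each library left out in turn. The main fit was tested on simulated data, with calls at adjusted p under 0.05 and no fold limit. True 2-fold differences were found in 64% of the genes set higher in Newhall and 36% of those set higher in Xinhui. For 4-fold differences these were 78% and 72%, and 6 unchanged genes were called. Counts used Python 3.11.15 with pandas 2.3.3, and figures matplotlib 3.10.9.

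Named were the listed genes called, the largest estimate of each functional group, the 6 genes measured by qPCR, actin, and, of 231 genes eligible in Newhall and 228 in Xinhui, the 2 with the largest difference each. The members, lists and tests were chosen with earlier results of these data known. No name, coordinate or sequence could be attached to other IDs.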

Additional observations from a re-analysis of the deposited data

Results flagged for a closer look

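For 6 named genes the difference between Newhall and Xinhui itself changed from 45 to 142 DPA, by the interaction of variety and stage in edgeR's quasi-likelihood test (adjusted over all genes tested). Cs6g09940 lost its Newhall excess, with a change of -5.24 on the log2 scale (SE 0.536, adjusted p = 2.31e-06). For orange1.1t03423 the fitted change was 8.96 (SE 1.44, adjusted p = 3.10e-04), and it was called in opposite directions at the 2 stages, but Xinhui had no read of it at 142 DPA and Newhall a mean of 0.648 CPM, so the size of this estimate depends on the prior count. The other 4 were picked because they, too, were called in opposite directions at the 2 stages. With calls of at least 2-fold on each side, a large fitted change followed from that choice. Their changes are therefore no separate evidence. Cs7g29830 changed by -2.14 (SE 0.198) and Cs2g03270 by -2.74 (SE 0.367). Cs1g06240 changed by 4.08 (SE 0.827) and Cs6g15680 by 3.57 (SE 0.507). The cause of these changes was not tested.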

How the results depend on the processing

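The total of 614 genes called at 45 DPA depended on the fold limit and on which libraries set the spread. It was 989 (432 higher in Newhall, 557 in Xinhui) from the 6 compared libraries alone and 1006 (444 and 562) from the 12 libraries of 45 DPA, and these calls included 608 and 611 of the 614. Without the fold limit it was 1349 (801 and 548), which is 59.4% higher in Newhall against 50.2% before. Without 1 library at a time it was 461 to 498, with 243 to 265 higher in Newhall and 202 to 255 higher in Xinhui; the 202 came without Newhall replicate 2, which also left 0 of the 72 listed genes called in place of 1 (0 to 1 over these fits). DESeq2 called 589, of which 550 were among the 614. With pseudocounts of 0.1 and 1, limma called 710 and 543, of which 501 and 497 were. The edgeR fits without 1 library kept 425 to 470 of the 614 (69.2% to 76.5%). Scaling by library totals alone moved the median difference of all genes to -0.066. At 142 DPA the 12 libraries of that stage, an alternative chosen after seeing the data, gave 999 calls, 505 of them higher in Newhall, against 1408 and 770; without 1 library the latter was 632 to 744. The replicate number as a block gave 306 calls in each direction; same-numbered libraries deviated with correlations of -0.0618, 0.0572 and 0.037, so the numbers were not taken to pair the libraries, and no named gene gained or lost its call.

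Reversed in sign were low genes far from the threshold: with 1 library left out, Cs1g03610 ranged from -0.19 (without Newhall replicate 1) to 0.54, Cs7g32260 from -0.68 (without Newhall replicate 2; also negative, -0.18, without Xinhui replicate 2) to 0.60, and Cs5g19950 from -3.14 to 1.99 (without Xinhui replicate 1). Totals of 3.76 M to 5.89 M reads per library leave genes under 1 CPM with a handful of reads each.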
